A study of Homo sapiens with 18 samples.

Results

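The genes described here are 44 nucleolar ribosome biogenesis factors, selected by symbol from the 28395 genes of a table of raw RNA-seq counts. The counts come from 3 established human lines of multiple myeloma, a cancer of plasma cells: H929, MM1S and OPM2. All 44 were found in the table and all passed the filter on low counts. By role they comprised 3 proteins of box C/D small nucleolar ribonucleoproteins (NOP56, NOP58, FBL), 4 of the H/ACA class (DKC1, NHP2, GAR1, NOP10), 3 abundant nucleolar chaperones (NCL, NPM1, NOLC1), 15 assembly factors of the small ribosomal subunit, 13 of the large subunit, and 6 subunits or partners of RNA polymerase I (POLR1A, POLR1B, POLR1C, TCOF1, DDX21, LYAR). RNA was sequenced from 9 groups of 2 libraries. The groups were H929 with an inducible CRISPR-Cas9 knockout of IKZF1 and H929 with empty vector, the same pair in MM1S, OPM2 with IKZF1 knockout, OPM2 with IKZF3 knockout, OPM2 with empty vector, and OPM2 given lenalidomide at 10 µM and OPM2 left untreated. Knockout and empty vector cells of all lines received doxycycline at 1 µg/mL, which induces the guide, and no doxycycline is recorded for the lenalidomide or untreated cells. Culture lasted 72 h, after which live cells were sorted by light scatter. Each line is a single established line, and the sources used here do not say whether knockout libraries of a group derive from different clones.

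Ribosome production starts in the nucleolus, where RNA polymerase I transcribes the ribosomal RNA precursor. Box C/D particles methylate this RNA, H/ACA particles convert selected uridines to pseudouridine, and large sets of assembly factors fold, cut and export the precursors of the small and the large subunit. The transcription factor MYC, paired with MAX, binds the E-box CACGTG and is known as an activator of many of these genes, and myeloma cells often express MYC at high levels. IKZF1 (Ikaros) and IKZF3 (Aiolos) are zinc finger transcription factors of lymphoid cells whose DNA motifs share a GGGAA core, and lenalidomide directs both proteins to degradation through cereblon.

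Libraries held 11.8 to 24.18 M counts in named genes. Values below are CPM (counts scaled to the TMM effective size of each library) and log2 fold changes ± the standard error from 1 edgeR quasi-likelihood model of all 18 libraries, with p-values adjusted by the Benjamini-Hochberg method over 14522 genes. A gene was called at an adjusted p below 0.05. All 10 plasma cell markers looked up were detected in every group, and the summed level of 16 markers of other cell types was 3.97 to 67.4 CPM per library, with 3 to 11 of the 16 at 0 in both libraries of a group. That sum was 9.03 to 10.9 CPM in MM1S knockout libraries against 5.74 to 5.93 with empty vector, 5.29 to 5.86 (IKZF1) and 7.54 to 11.6 (IKZF3) in OPM2 knockouts against 10.6 to 19.4 with empty vector, 60.2 to 67.4 against 65.6 to 66.8 in H929, and 3.97 to 4.77 with lenalidomide against 7.66 to 9.19 in untreated cells. The part of these low levels in the results was not tested. The mRNA of the targeted genes was not lower in the knockouts: IKZF1 stood at 124 and 188 CPM in H929 knockout libraries against 128 and 120.1 CPM with empty vector, at 312 and 332 against 178 and 185 CPM in MM1S, and at 212 and 225 against 94.3 and 188 CPM in OPM2. IKZF3 stood at 69.3 and 66.6 CPM in IKZF3 knockout OPM2 libraries against 44.03 and 50.3 CPM with empty vector. A count over the whole gene does not show loss of protein, so these values do not check the knockout labels, which are used below as given. Replicate 1 of the OPM2 empty vector group was unlike replicate 2: 1011 genes differed by over 2-fold within this pair, while 15 to 421 did so within the pairs of other groups. Among the 44 genes 2 differed more than 2-fold within that pair and 0 within any other pair. In these bulk samples, fewer cells of a type and less RNA per cell cannot be told apart. The labels do not say that replicates are separate cultures, so p-values measure the spread between these libraries, which may be technical.

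The promoter windows of the genes are shown first, because the E-box is the letter pattern through which MYC is known to bind. RefSeq windows of 300 bases on GRCh38.p14, from 250 bases before to 50 after the annotated start, were found for 37 of the 44 genes. CACGTG, which reads the same on both strands, was present in 13 of the 37 windows (35.1%), against 7.43% of the windows of 27305 genes. The related letters CACGCG, searched on both strands, were present in 13 windows (35.1%, against 11.4% of all genes), and GGGAA in 23 windows (62.2%, against 64.6% of all genes). The 13 genes with an E-box were NOP2, NOP14, FBL, NOP10, PES1, RRP9, UTP4, UTP20, WDR43, NAT10, BYSL, MRTO4 and NOC3L, and in each of them 1 copy began within 16 bases before or 36 bases after the start. A letter match is a description of the window and not a measured binding site. The windows of all genes were not limited to the genes tested or matched for GC content. Many of the 44 genes are known to be activated by MYC, so the share with CACGTG is not independent of their choice. Below, capitals mark CACGTG, and each line runs 5′ to 3′ on the strand of the gene. The stretches of NOP10, NAT10 and UTP4 end at the base before the start and belong to genes that fell in OPM2 knockouts relative to empty vector, and the NOP56 stretch, which also ends at the base before the start, holds no E-box although the gene fell as well.
NOP10 (chr15:34343137-34343194, minus strand): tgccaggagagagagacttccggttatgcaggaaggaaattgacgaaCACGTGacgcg
NAT10 (chr11:34105567-34105628, plus strand): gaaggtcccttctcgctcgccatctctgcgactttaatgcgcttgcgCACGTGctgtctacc
UTP4 (chr16:69132586-69132648, plus strand): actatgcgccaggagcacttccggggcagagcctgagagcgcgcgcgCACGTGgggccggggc
NOP56 (chr20:2652532-2652631, plus strand): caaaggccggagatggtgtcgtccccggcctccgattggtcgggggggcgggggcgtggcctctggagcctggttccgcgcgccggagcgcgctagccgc
The next lines give 30 bases around an E-box close to the start, on either side of it. RRP9, FBL and MRTO4 fell in OPM2 knockouts relative to empty vector and UTP20 was not called there. These 4 were picked after their values were seen. The first base of the E-box lies 5 bases before the start in RRP9, at base 7 after it in FBL, at base 15 in MRTO4 and 10 bases before it in UTP20.
RRP9 (chr3:51941892-51941921, minus strand): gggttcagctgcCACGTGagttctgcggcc
FBL (chr19:39846356-39846385, minus strand): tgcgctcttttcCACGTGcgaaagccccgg
MRTO4 (chr1:19251807-19251836, plus strand): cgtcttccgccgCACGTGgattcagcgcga
UTP20 (chr12:101280083-101280112, plus strand): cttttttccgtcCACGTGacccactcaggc
Of the 30 genes called lower after IKZF1 knockout in OPM2, 25 had a window and 10 of these held CACGTG (40%), against 3 of the 12 other members with a window (25%). In MM1S the order was the other way, with CACGTG in 2 of 9 members called lower (22.2%) and in 11 of 28 others (39.3%).

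Per length of transcript, these genes were well expressed in all control groups. In the authors' deposited table of log2 FPKM values, in which the controls of a group are merged into a single column, the median of the 44 genes was 5.53 in OPM2 empty vector cells and 4.73 in untreated OPM2 cells. It was 4.88 in MM1S and 5.2 in H929 empty vector cells. The median of all genes in that table was 1.75 to 1.84 in these columns, and 43 or 44 of the 44 genes lay above it. PPAN, a large-subunit factor whose gene is part of a read-through locus with P2RY11, was the lowest in every column, at log2 FPKM values of 0.90 to 2.41 in the authors' deposited table. NCL was the highest at 8.92 in H929, 8.51 in MM1S and 8.46 in untreated OPM2 cells, and FBL was the highest at 9.10 in OPM2 empty vector cells. Thus the order at the top changed within OPM2 between the merged control columns. NCL was at 8.82 beside FBL in the empty vector column, and FBL at 8.13 beside NCL in the untreated column. The empty vector libraries differed in FBL. Relative to the mean CPM of the group, its log2 level was 0.398 in replicate 1 and -0.551 in replicate 2. For NCL these levels were -0.011 and 0.010. At the low end above PPAN, UTP15 (2.17) and UTP20 (2.50) were next in untreated OPM2 cells, both subunits of the early small-subunit processome. The merged columns carry no spread, so neighbouring genes in this order were not compared.

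In OPM2, most of the 44 genes were lower in both knockouts than with empty vector. After IKZF1 knockout 30 genes fell and 0 rose, where 36.3% of all genes tested were called, 16.2% higher and 20.1% lower. After IKZF3 knockout 29 fell and 0 rose, where 36.9% of all genes were called, 16.2% higher and 20.7% lower. Both knockout libraries lay below both empty vector libraries in 34 of the 44 genes for IKZF1, against 31.8% of all genes, and in 33 for IKZF3, against 33% of all genes. The median log2 fold change of the 44 genes was -0.63 after IKZF1 knockout and -0.60 after IKZF3 knockout, while the median of all genes was 0 and -0.033. Both comparisons share the same 2 empty vector libraries, so they are not independent of each other.

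**Figure D1:**
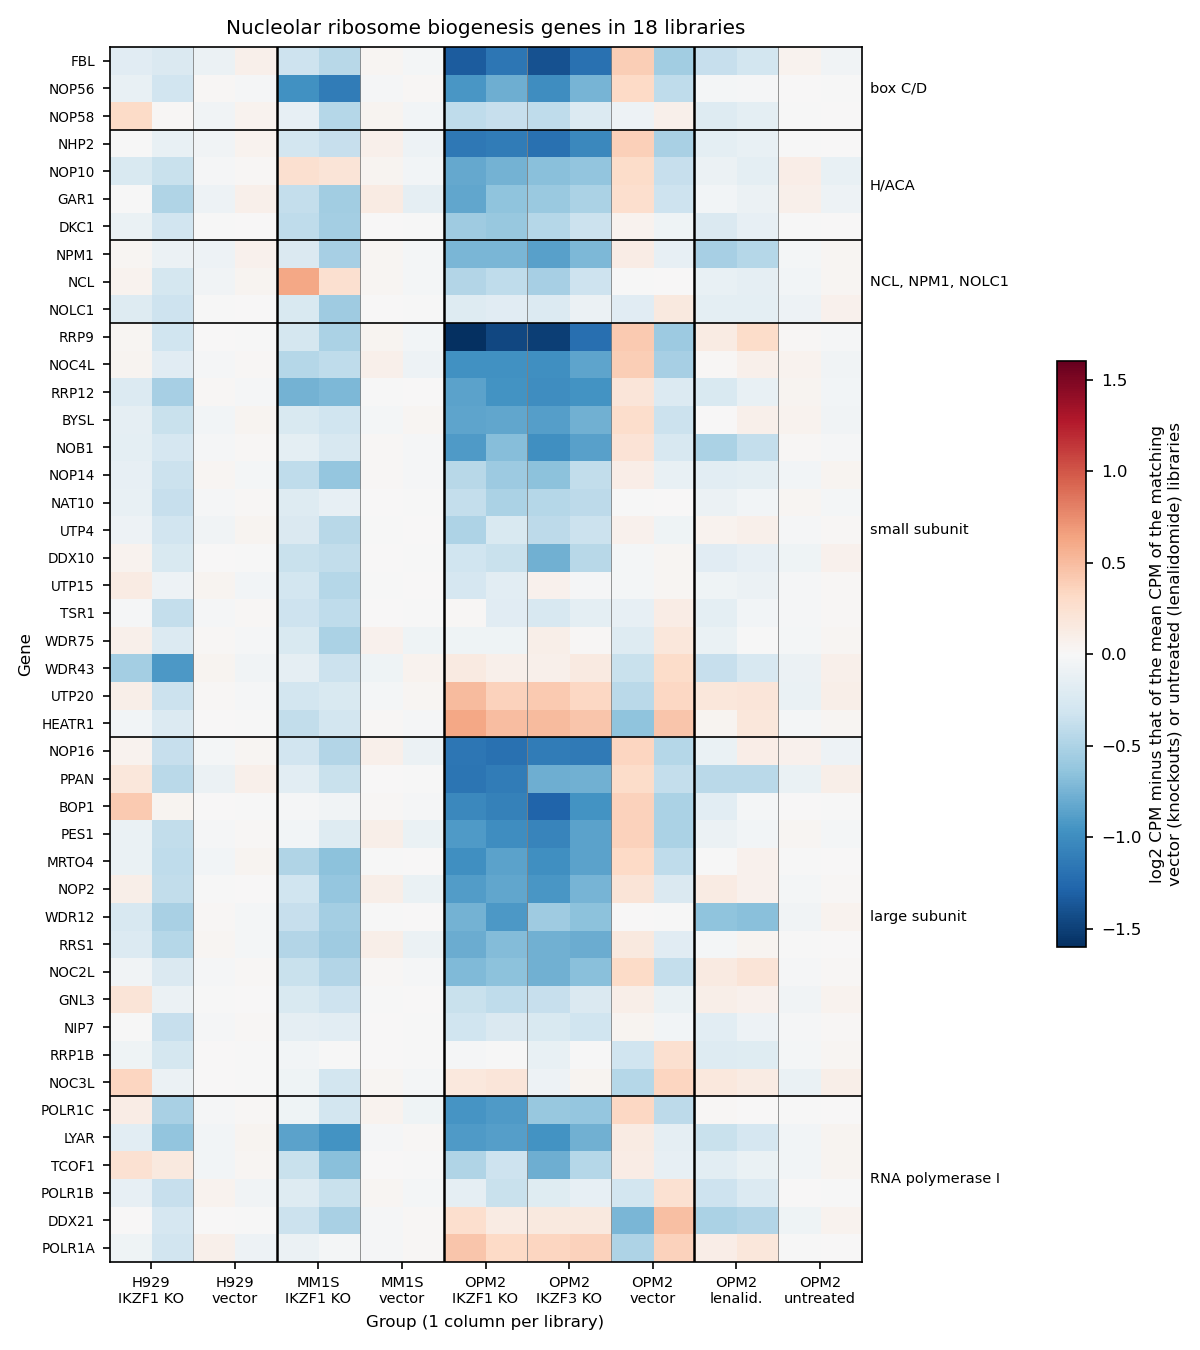
Heat map of the 44 genes (rows, grouped by role) in the 18 libraries (columns, 2 per group). Colour is the log2 CPM of a library relative to the mean CPM of its control group, empty vector for the knockouts and untreated cells for lenalidomide. Blue, meaning lower, fills most rows of the 4 OPM2 knockout columns and, more faintly, the MM1S knockout columns, and the 2 OPM2 empty vector columns differ from each other in many rows.

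Of the box C/D proteins, 3 of 3 fell after IKZF1 knockout and 2 of 3 after IKZF3 knockout in OPM2. FBL, the methyltransferase of these particles, had 302 and 339.9 CPM after IKZF1 knockout and 289 and 332 CPM after IKZF3 knockout, against 999 and 517 CPM with empty vector, and its log2 fold change was -1.24 ± 0.21, adjusted p = 0.00107 after IKZF1 knockout and -1.29 ± 0.21, adjusted p = 0.000744 after IKZF3 knockout. All 4 knockout libraries lay below both empty vector libraries, although these stood far apart from each other. NOP56, a core scaffold protein, had 212 and 235 CPM after IKZF1 knockout and 204 and 241 CPM after IKZF3 knockout, against 503 and 306 CPM with empty vector (-0.85 ± 0.17, adjusted p = 0.00261 and -0.86 ± 0.17, adjusted p = 0.00241). Its partner NOP58 had 139.6 and 142 CPM after IKZF1 knockout and 139 and 158 CPM after IKZF3 knockout, against 174 and 195 CPM with empty vector, and fell after IKZF1 knockout (-0.39 ± 0.13, adjusted p = 0.0319) without passing the threshold after IKZF3 knockout (-0.31 ± 0.13, adjusted p = 0.0744). The H/ACA proteins were all called lower in both knockouts, 4 of 4. NHP2, an RNA-binding core protein, had 103 and 104 CPM after IKZF1 knockout and 99.3 and 111 CPM after IKZF3 knockout, against 295 and 158 CPM with empty vector (-1.13 ± 0.20, adjusted p = 0.00131 and -1.11 ± 0.20, adjusted p = 0.00132). DKC1, the pseudouridine synthase itself, had 174 and 170.0 CPM after IKZF1 knockout and 188 and 203 CPM after IKZF3 knockout, against 269 and 247 CPM with empty vector (-0.58 ± 0.11, adjusted p = 0.00152 and -0.40 ± 0.11, adjusted p = 0.00955). NOP10, a small bridging protein, had 47.2 and 49.4 CPM after IKZF1 knockout and 52.2 and 53.8 CPM after IKZF3 knockout, against 102 and 64.7 CPM with empty vector (-0.78 ± 0.16, adjusted p = 0.00294 and -0.65 ± 0.16, adjusted p = 0.0073). For each of these 3 proteins the knockout and empty vector libraries did not overlap.

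Among the nucleolar chaperones, NPM1 (nucleophosmin) had 291 and 292 CPM after IKZF1 knockout and 265 and 293 CPM after IKZF3 knockout, against 524 and 444 CPM with empty vector (-0.73 ± 0.12, adjusted p = 0.00106 and -0.79 ± 0.12, adjusted p = 0.000575). NCL (nucleolin) had 1086 and 1135 CPM after IKZF1 knockout and 1042 and 1199 CPM after IKZF3 knockout, against 1492 and 1514 CPM with empty vector (-0.44 ± 0.13, adjusted p = 0.0211 and -0.42 ± 0.13, adjusted p = 0.0235). Both fell in both knockouts with no overlap between groups. NOLC1, a chaperone of small nucleolar particles, was not called, at 288 and 290.5 CPM after IKZF1 knockout and 284 and 311 CPM after IKZF3 knockout, against 293 and 369 CPM with empty vector (-0.19 ± 0.13, adjusted p = 0.261 and -0.15 ± 0.13, adjusted p = 0.381), and its IKZF3 knockout and empty vector libraries overlapped.

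The small-subunit factors split by gene. Of 15, 8 fell after IKZF1 knockout and 9 after IKZF3 knockout, and the others were not called. RRP9, a protein of the U3 particle that begins processing of the precursor, had 25 and 27.5 CPM after IKZF1 knockout and 26.4 and 32.6 CPM after IKZF3 knockout, against 100.2 and 50.1 CPM with empty vector, the lowest fold changes of the 44 genes (-1.51 ± 0.24, adjusted p = 0.000738 and -1.34 ± 0.24, adjusted p = 0.00119). RRP12, an export factor, had 67.05 and 62.95 CPM after IKZF1 knockout and 61.1 and 62.8 CPM after IKZF3 knockout, against 139 and 105 CPM with empty vector (-0.91 ± 0.14, adjusted p = 0.000592 and -0.97 ± 0.14, adjusted p = 0.000314). NOB1, the endonuclease of the last cut of small-subunit RNA, had 93.8 and 110.0 CPM after IKZF1 knockout and 89.03 and 96.8 CPM after IKZF3 knockout, against 205 and 147 CPM with empty vector (-0.79 ± 0.14, adjusted p = 0.00143 and -0.92 ± 0.14, adjusted p = 0.00055). The maturation factors BYSL (-0.83 ± 0.16, adjusted p = 0.00205 after IKZF1 knockout) and NOC4L (-0.96 ± 0.21, adjusted p = 0.00339), and NOP14 (-0.51 ± 0.13, adjusted p = 0.00807), NAT10, an RNA acetyltransferase (-0.44 ± 0.11, adjusted p = 0.00584), and UTP4 (-0.36 ± 0.12, adjusted p = 0.0302) complete the 8. DDX10, a helicase, was the ninth after IKZF3 knockout (-0.59 ± 0.13, adjusted p = 0.00336). The long early factors HEATR1 and UTP20 had positive fold changes that were not called: HEATR1 had 165 and 151 CPM after IKZF1 knockout and 152 and 146 CPM after IKZF3 knockout, against 68.8 and 146 CPM with empty vector (0.56 ± 0.22, adjusted p = 0.0645 and 0.47 ± 0.22, adjusted p = 0.115), and UTP20 had 72.7 and 65.8 CPM after IKZF1 knockout and 68.2 and 64.2 CPM after IKZF3 knockout, against 37.8 and 64.2 CPM with empty vector (0.43 ± 0.19, adjusted p = 0.0922 and 0.37 ± 0.19, adjusted p = 0.148). For HEATR1, empty vector replicate 1 held less than its partner and than every knockout library. WDR43, WDR75, TSR1 and UTP15 had log2 fold changes of -0.22 to 0.11 after IKZF1 knockout and were not called.

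Large-subunit factors fell in 10 of 13 cases after IKZF1 knockout and in 9 of 13 after IKZF3 knockout. WDR12, which with PES1 and BOP1 forms a complex needed for large-subunit RNA processing, had 69.8 and 62.4 CPM after IKZF1 knockout and 79.3 and 74.7 CPM after IKZF3 knockout, against 118 and 118 CPM with empty vector (-0.84 ± 0.12, adjusted p = 0.000343 and -0.62 ± 0.12, adjusted p = 0.0017). Here the empty vector libraries lay close together, and the knockout libraries lay well below both. PES1 (-0.95 ± 0.20, adjusted p = 0.0034) and BOP1 (-1.06 ± 0.21, adjusted p = 0.00231) fell as well after IKZF1 knockout, and BOP1 had -1.11 ± 0.21, adjusted p = 0.00172 after IKZF3 knockout. RRS1, which helps to bring the 5S particle into the precursor, had 74.1 and 78.9 CPM after IKZF1 knockout and 75.1 and 74.1 CPM after IKZF3 knockout, against 143 and 113 CPM with empty vector (-0.74 ± 0.13, adjusted p = 0.00122 and -0.78 ± 0.13, adjusted p = 0.000815). NOP16 had 26.9 and 26.2 CPM after IKZF1 knockout and 27.6 and 27.5 CPM after IKZF3 knockout, against 76.5 and 43.8 CPM with empty vector (-1.17 ± 0.21, adjusted p = 0.00137 and -1.12 ± 0.21, adjusted p = 0.00154). MRTO4, a ribosomal stalk assembly factor, fell to 91.3 and 99.8 CPM after IKZF1 knockout and 91.3 and 99.4 CPM after IKZF3 knockout, against 225 and 136 CPM with empty vector (-0.92 ± 0.18, adjusted p = 0.00216 and -0.92 ± 0.18, adjusted p = 0.002). NOP2, an RNA methyltransferase, PPAN, NOC2L and GNL3 (nucleostemin) were the other genes called after IKZF1 knockout, with log2 fold changes of -1.12 to -0.38. GNL3 was not called after IKZF3 knockout (-0.30 ± 0.12, adjusted p = 0.0574). RRP1B, NOC3L and NIP7 were called in neither.

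Of the 6 genes tied to RNA polymerase I, LYAR, POLR1C and TCOF1 fell in both knockouts. LYAR, a nucleolar zinc finger protein, had 45.2 and 46.3 CPM after IKZF1 knockout and 43.8 and 49.8 CPM after IKZF3 knockout, against 93.2 and 76.7 CPM with empty vector (-0.89 ± 0.15, adjusted p = 0.000903 and -0.86 ± 0.14, adjusted p = 0.000925). POLR1C, a subunit shared with RNA polymerase III, had 27.6 and 28.2 CPM after IKZF1 knockout and 34.8 and 34.5 CPM after IKZF3 knockout, against 66.5 and 39.5 CPM with empty vector (-0.92 ± 0.21, adjusted p = 0.00499 and -0.61 ± 0.21, adjusted p = 0.0346). TCOF1 (treacle), a cofactor of ribosomal DNA transcription, had 62.9 and 69.5 CPM after IKZF1 knockout and 50.7 and 63.5 CPM after IKZF3 knockout, against 94.9 and 80.03 CPM with empty vector (-0.40 ± 0.14, adjusted p = 0.0352 and -0.61 ± 0.14, adjusted p = 0.00431). In all 3 the knockout and empty vector libraries were apart. The largest subunit POLR1A had 85.99 and 78.6 CPM after IKZF1 knockout and 80.2 and 81.7 CPM after IKZF3 knockout, against 44.8 and 81.1 CPM with empty vector and was not called, and POLR1B and the helicase DDX21 were not called either. DDX21 had 439.6 and 398 CPM after IKZF1 knockout and 406 and 406 CPM after IKZF3 knockout, against 219 and 508 CPM with empty vector. In both POLR1A and DDX21 empty vector replicate 1 was the lowest of the 6 libraries.

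These calls depend on the empty vector libraries. All groups share 1 estimate of spread, so leaving out any library can change the calls of all genes. Here and below, counts with 1 library left out stand without the share of all genes called in that fit. They do not show whether a shift is particular to the 44 genes. With untreated OPM2 cells as the control, 0 of the 44 genes were called after IKZF1 knockout, where 7.78% of all genes were called, and their median log2 fold change was 0.26, with 38 of 44 positive. Both libraries were above both untreated ones in 36 of the 44 genes, against 29.6% of all genes. Against untreated cells 2 genes rose after IKZF3 knockout, where 8.3% of all genes were called and 3.75% were called higher, namely UTP15 (0.58 ± 0.11, adjusted p = 0.0057) and GNL3 (0.46 ± 0.12, adjusted p = 0.0249), and the median was 0.26 with 39 positive. Here too 36 genes had both knockout libraries above both untreated ones, against 30.4% of all genes. FBL stood at 342 and 318 CPM in untreated cells, close to its level in the knockouts, and RRP9 at 19.99 and 19.6 CPM, below all 4 knockout libraries. Without empty vector replicate 1, 27 of the genes were called lower in each knockout. Without replicate 2, 7 rose and 30 fell after IKZF1 knockout, and 7 rose and 31 fell after IKZF3 knockout. Without IKZF3 knockout library a, 18 fell after IKZF3 knockout. When the 4 compared libraries were fitted alone, 0 were called lower. In either direction, 0.924% of all genes were called after IKZF1 knockout and 0.437% after IKZF3 knockout.

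The empty vector group itself was high. Compared with untreated OPM2 cells, 36 of the 44 genes rose in empty vector cells and 0 fell, where 35.4% of all genes were called, 19.5% higher and 15.9% lower. In 37 genes both empty vector libraries lay above both untreated ones, against 31.5% of all genes. The median log2 fold change was 0.75, against 0 for all genes. Summed over the 44 genes, the level was 9044 and 7849 CPM in the empty vector libraries, against 5089 and 5236 CPM in untreated libraries, and it was 5826 and 5864 CPM after IKZF1 knockout and 5586 and 6104 CPM after IKZF3 knockout. By role, 3 of 3 box C/D, 4 of 4 H/ACA, 3 of 3 chaperone, 11 of 15 small-subunit, 11 of 13 large-subunit and 4 of 6 polymerase I genes rose. RRP9 (1.92 ± 0.24, adjusted p = 0.000444), NOP16 (1.62 ± 0.21, adjusted p = 0.000527) and MRTO4 (1.31 ± 0.18, adjusted p = 0.00076) had the highest fold changes. RRP12 was at 139 and 105 CPM in empty vector cells, against 54.9 and 51.7 CPM in untreated cells (1.19 ± 0.14, adjusted p = 0.000421), and RRS1 at 143 and 113 CPM, against 59.1 and 59.7 CPM (1.11 ± 0.13, adjusted p = 0.000421). Neither pair of groups overlapped, and the partner library, empty vector replicate 2, was above both untreated libraries in each gene. Without empty vector replicate 1, 40 genes rose, and without replicate 2, 34 rose and 4 fell. When these 4 libraries were fitted alone 0 of the 44 were called, as were 0 of all genes tested. Empty vector and untreated cells differ in the vector and in doxycycline, which cannot be told apart.

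**Figure D2:**
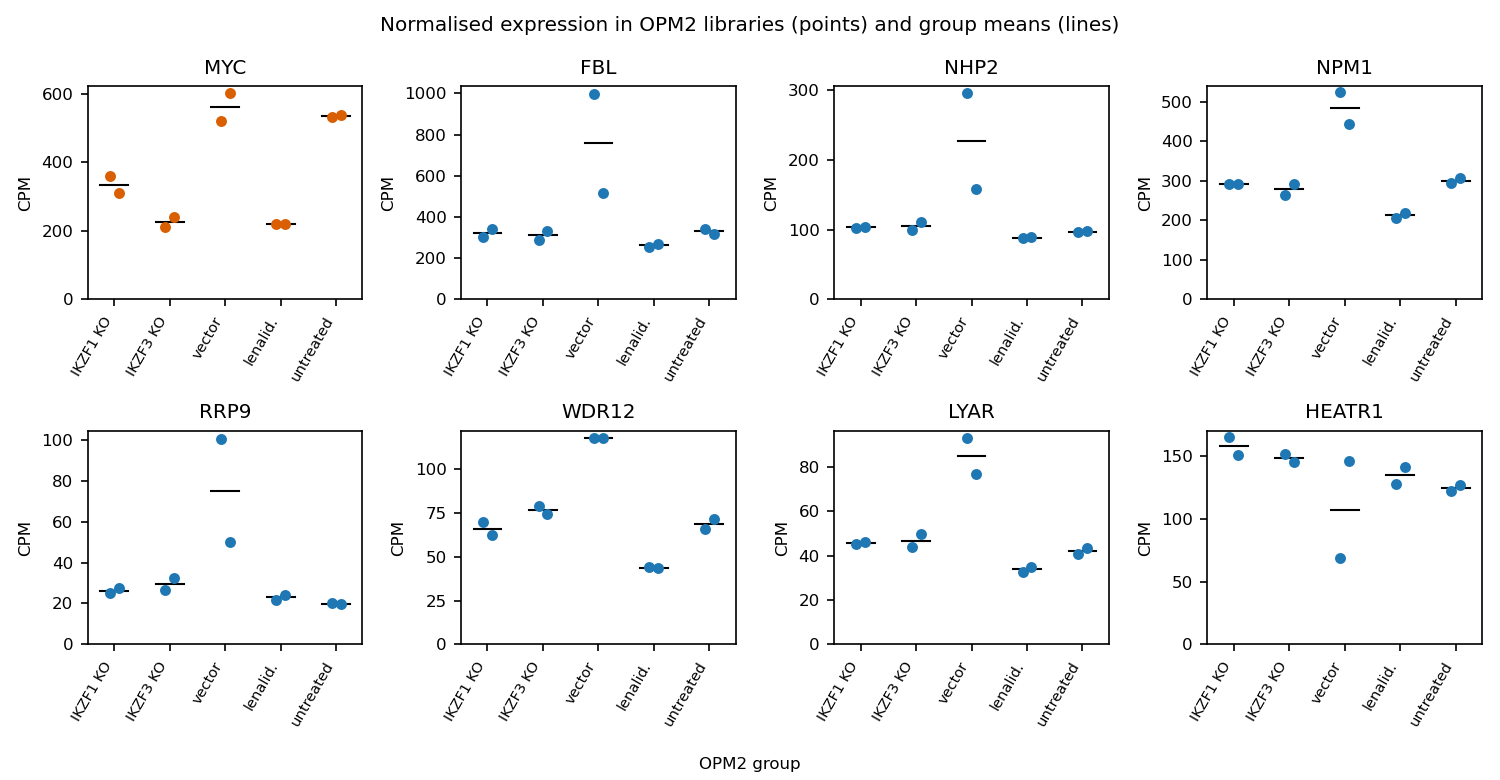
CPM of MYC and 7 of the 44 genes in the OPM2 libraries (points, 2 per group, with the group mean as a line). FBL, NHP2, NPM1, RRP9, WDR12 and LYAR are highest in the empty vector group. All of these but RRP9 are similar in knockout and untreated cells, and RRP9 is lower in untreated cells than in each knockout library. MYC is high in empty vector and untreated cells alike.

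In comparisons with the OPM2 empty vector group, fold changes ran with transcript length across all genes, and many of the 44 genes are short. Over 14121 genes with a known transcript, Spearman's rho between the log2 fold change and the length of the longest annotated transcript was 0.44 after IKZF1 knockout, 0.40 after IKZF3 knockout and -0.43 for empty vector over untreated cells. Within the 44 genes it was 0.72, 0.67 and -0.68. With GC content the same correlations were -0.35, -0.34 and 0.37 over all genes, and -0.67, -0.70 and 0.68 within the 44 genes. In H929, MM1S and lenalidomide comparisons the length correlations were 0.048, 0.071 and 0.056. These correlations are across genes, and the first 3 comparisons share the empty vector libraries, so they are given as descriptions. In the shortest of 5 equal length classes, up to 2062 bases, the median log2 fold change after IKZF1 knockout in OPM2 was -0.49 over all genes and -0.86 over the 14 members in it, of which 14 were called lower against 40.8% of all genes there. In the next class the medians were -0.92 for 6 members and -0.22 for all genes, and in the longest class, above 5868 bases, they were 0.38 for 5 members and 0.45 for all genes. In each of the 5 classes the members' median lay below that of all genes. The longest class held POLR1A, UTP20 and HEATR1, with positive fold changes, and DDX10 and WDR12, of which WDR12 fell. A correction of each library for length and GC was an alternative chosen after seeing the data. With it, 34 of the genes were called lower after IKZF1 knockout and 29 after IKZF3 knockout. In empty vector over untreated cells 41 were called higher. The shares of all genes called in either direction in these 3 comparisons were 32%, 34.9% and 31.2%. Without empty vector replicate 1 the length correlations over all genes were 0.29, 0.24 and -0.27. Length and GC content were not separated here, and what gave rise to the relation with them was not tested.

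**Figure D3:**
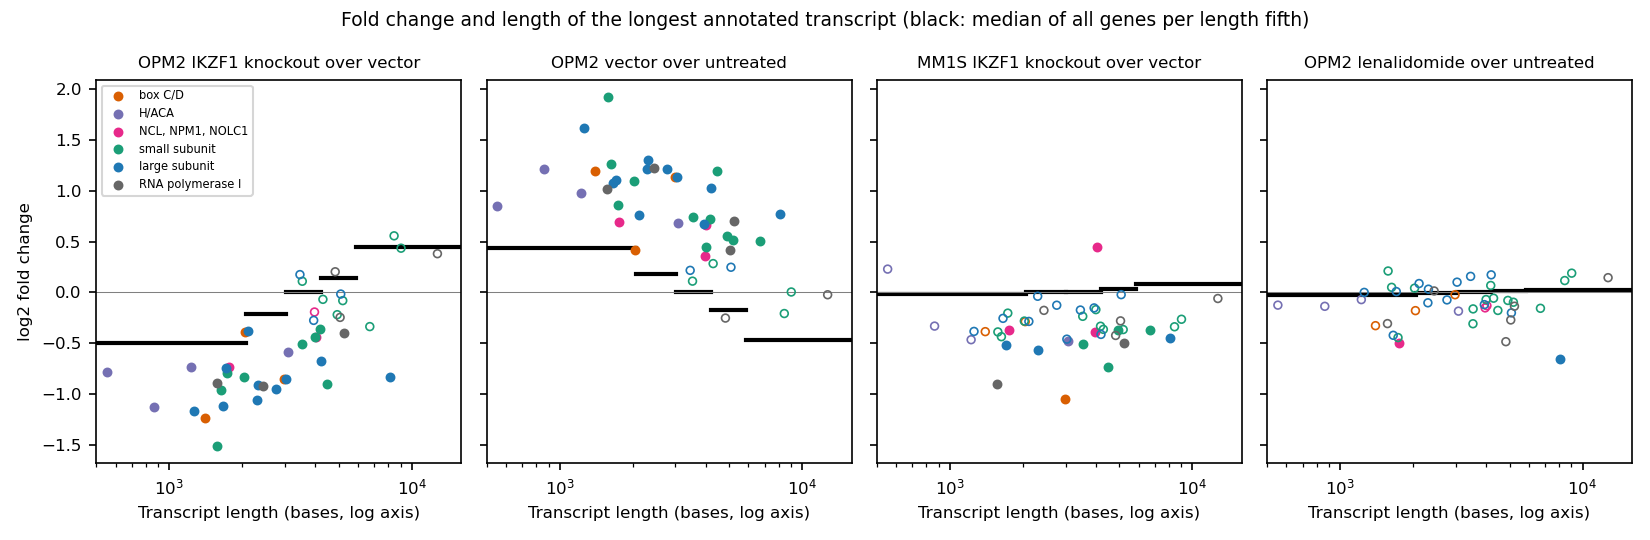
Log2 fold change of the 44 genes (points, coloured by role, filled where the adjusted p is below 0.05) against the length of the longest annotated transcript on a log axis, in 4 comparisons. Black bars are the medians of all genes in 5 length classes, which climb from -0.49 to 0.45 for IKZF1 knockout over empty vector in OPM2, slope down for empty vector over untreated cells, and stay near 0 in MM1S and with lenalidomide.

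In MM1S most of the genes lay somewhat lower after IKZF1 knockout. Of the 44, 13 fell and 1 rose, where 28.3% of all genes were called, 15.6% higher and 12.7% lower, and 42 had a negative log2 fold change. In 39 of the 44 genes both knockout libraries lay below both empty vector libraries, against 35.6% of all genes. The median log2 fold change was -0.37, against 0.0023 for all genes. The summed level of the 44 genes was 5718 and 5007 CPM in knockout libraries, against 6307 and 6145 CPM in empty vector libraries.

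The change in MM1S was led by NOP56 and LYAR. NOP56 had 106 and 95.1 CPM in IKZF1 knockout MM1S cells, against 205 and 209 CPM with empty vector (-1.05 ± 0.18, adjusted p = 0.000487), while the other box C/D proteins FBL (-0.39 ± 0.21, adjusted p = 0.188) and NOP58 (-0.29 ± 0.13, adjusted p = 0.121) did not pass the threshold. LYAR had 30.01 and 27.96 CPM in IKZF1 knockout MM1S cells, against 53.4 and 55.2 CPM with empty vector (-0.90 ± 0.15, adjusted p = 0.000397), and TCOF1 had 98.6 and 79.2 CPM in IKZF1 knockout MM1S cells, against 126 and 126 CPM with empty vector (-0.50 ± 0.14, adjusted p = 0.0136), the 2 genes of 6 called in the polymerase I group. RRP12 had 61.3 and 62.96 CPM in IKZF1 knockout MM1S cells, against 103 and 104 CPM with empty vector (-0.74 ± 0.14, adjusted p = 0.00108). These 4 genes showed no overlap between the groups. NOP14 (-0.51 ± 0.13, adjusted p = 0.00915), UTP15 (-0.37 ± 0.11, adjusted p = 0.024) and DDX10 (-0.37 ± 0.13, adjusted p = 0.0455) were the other small-subunit factors that fell, 4 of 15 in all, and all 15 had negative fold changes. In the large-subunit group 3 of 13 fell, RRS1 (-0.52 ± 0.13, adjusted p = 0.00805), WDR12 (-0.45 ± 0.12, adjusted p = 0.0118) and MRTO4 (-0.57 ± 0.18, adjusted p = 0.0293). DKC1 was the 1 of 4 H/ACA proteins that fell, with 133 and 120.3 CPM in IKZF1 knockout MM1S cells, against 177 and 174 CPM with empty vector (-0.47 ± 0.11, adjusted p = 0.00395). NPM1 (-0.37 ± 0.12, adjusted p = 0.0341) and NOLC1 (-0.40 ± 0.13, adjusted p = 0.0343) fell among the chaperones.

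NCL moved against the others in MM1S. It had 1271 and 986 CPM in IKZF1 knockout MM1S cells, against 847 and 805 CPM with empty vector (0.45 ± 0.13, adjusted p = 0.0216), the 1 gene of the 44 that rose. NOP10 had 73.7 and 70.9 CPM in IKZF1 knockout MM1S cells, against 63.5 and 59.9 CPM with empty vector and was not called (0.23 ± 0.16, adjusted p = 0.33), the other positive fold change. The MM1S count varied with the libraries in the fit: 12 genes were called without knockout library a, 4 without library b, 4 without empty vector replicate 1, 6 without replicate 2, 32 without either OPM2 empty vector library, 36 when the MM1S libraries were fitted alone (55.4% of all genes called) and 33 with the length and GC correction (39.1%). NOP56, LYAR and RRP12 were the 3 genes called whichever of the 4 MM1S libraries was left out.

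**Figure D4:**
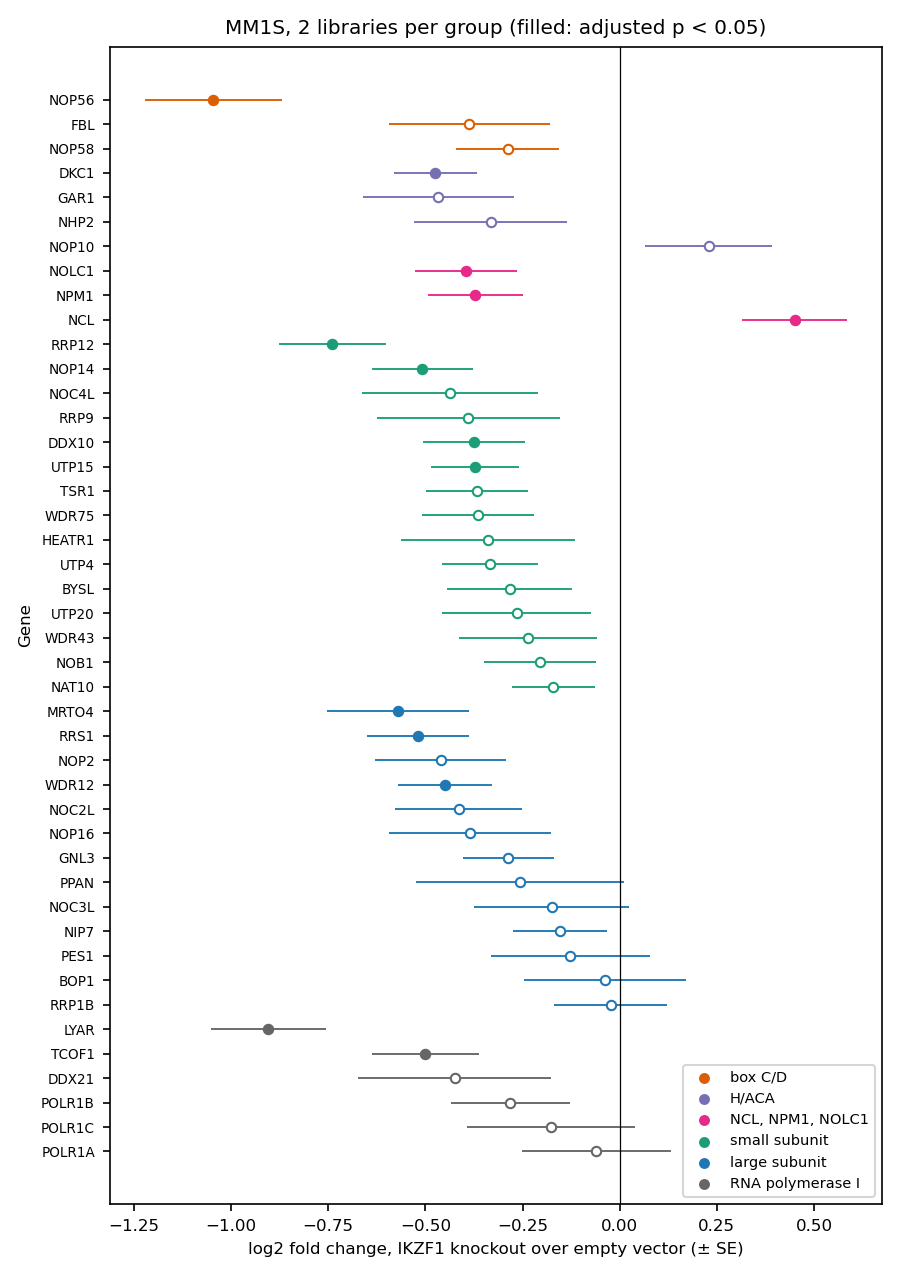
Log2 fold change of each gene in MM1S, IKZF1 knockout over empty vector, with its standard error (bars), grouped by role. All but 2 points lie left of 0, NOP56 at -1.05 and LYAR at -0.90 lie furthest left, and NCL at 0.45 is the filled point on the right.

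H929 showed little change. After IKZF1 knockout 1 of the 44 genes fell and 0 rose, where 10.5% of all genes were called, 5.94% higher and 4.61% lower, so the share of members called (2.27%) was below that of all genes. The gene was WDR43, an early small-subunit processome protein, at 94.9 and 73.02 CPM in IKZF1 knockout H929 cells, against 143 and 133 CPM with empty vector (-0.72 ± 0.18, adjusted p = 0.0168). It was not called, and 0 of the 44 genes were, when H929 knockout library b or either empty vector library was left out, and 3 genes were called lower without library a. WDR12 (-0.38 ± 0.12, adjusted p = 0.0525), LYAR (-0.39 ± 0.14, adjusted p = 0.115), NOLC1 (-0.27 ± 0.13, adjusted p = 0.231), DKC1 (-0.21 ± 0.11, adjusted p = 0.272) and NOP58 (0.17 ± 0.13, adjusted p = 0.507) had the smallest p of the other roles and were not called. The median log2 fold change was -0.17, with 38 of 44 negative, against -0.031 for all genes, and 22 genes had both knockout libraries below both empty vector ones, against 33.2% of all genes. The knockout libraries were unlike each other: the median log2 level of the 44 genes relative to the empty vector mean was -0.030 in library a and -0.31 in library b, and 41 genes lay below that mean in library b against 26 in library a. When either OPM2 empty vector library was left out, 9 genes were called lower in H929.

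Lenalidomide changed few of these genes in OPM2. Of the 44, 2 fell and 0 rose, where 10.4% of all genes were called, 5.78% higher and 4.59% lower. WDR12 had 44.02 and 43.5 CPM with lenalidomide, against 66.1 and 71.9 CPM in untreated cells (-0.66 ± 0.12, adjusted p = 0.00228). NPM1 had 207 and 218 CPM with lenalidomide, against 294 and 306 CPM in untreated cells (-0.50 ± 0.12, adjusted p = 0.0174). In both genes the treated libraries lay below the untreated ones, and WDR12 was called whichever of the 4 libraries was left out, the only call in each case. NOB1 had 67.9 and 74.5 CPM with lenalidomide, against 98.5 and 95.2 CPM in untreated cells (-0.45 ± 0.14, adjusted p = 0.0626) and was not called, and FBL (-0.33 ± 0.21, adjusted p = 0.393), DKC1 (-0.19 ± 0.11, adjusted p = 0.338) and LYAR (-0.31 ± 0.15, adjusted p = 0.239) led their roles without being called. The median log2 fold change was -0.10, against 0 for all genes, and 26 genes had both treated libraries below both untreated ones, against 32.5% of all genes, while 9 had both above, against 32.9% of all genes. The summed level was 4563 and 4680 CPM with lenalidomide, against 5089 and 5236 CPM in untreated cells. Fitted alone, these 4 libraries gave 15 genes lower and 2 higher (45.4% of all genes called), and without either OPM2 empty vector library 6 were called lower.

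**Figure D5:**
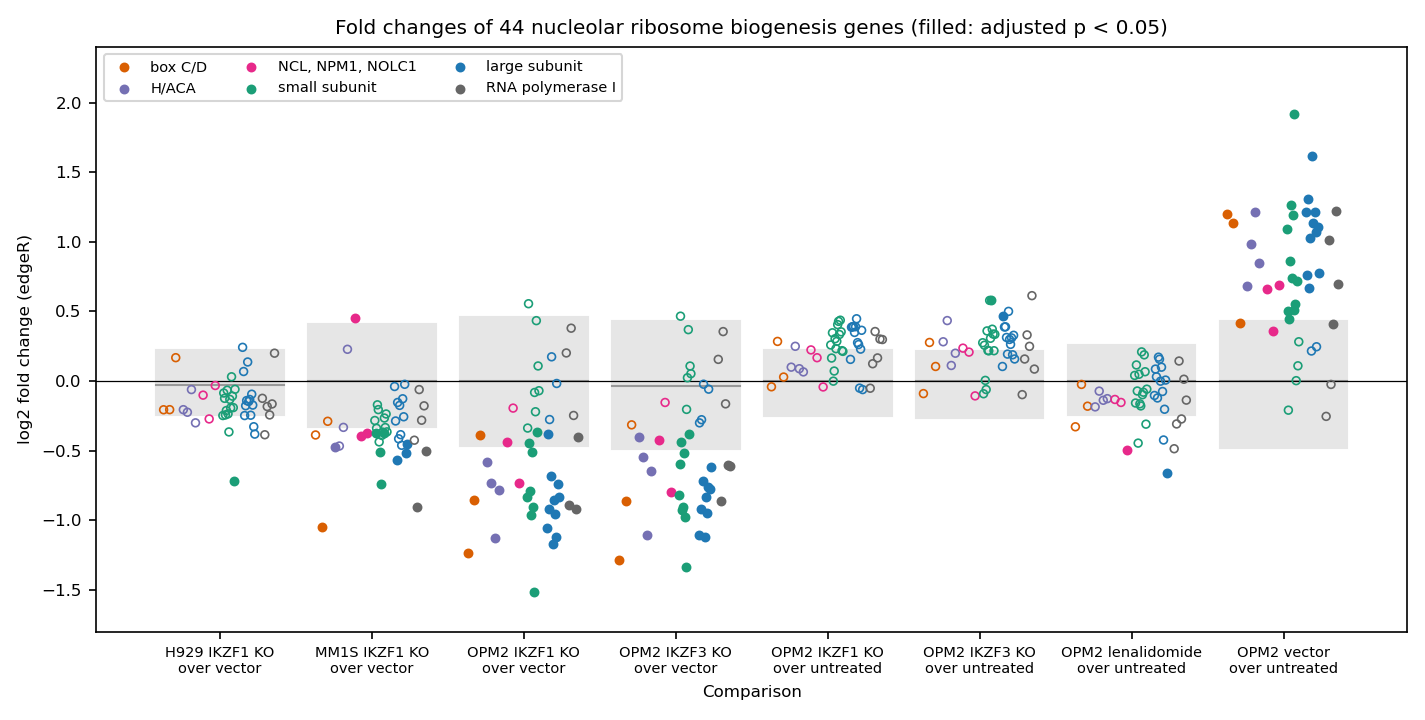
Log2 fold changes of the 44 genes in 8 comparisons, coloured by role, filled where the adjusted p is below 0.05. Grey boxes span the middle 50% of all genes and the grey line is their median. The points lie mostly below the box centre for OPM2 knockouts over empty vector (medians -0.63 and -0.60) and above it for the same knockouts over untreated cells (medians 0.26 and 0.26) and for empty vector over untreated cells (0.75).

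The knockouts of IKZF1 and IKZF3 in OPM2 were also compared directly, with no empty vector library in the contrast. The empty vector libraries still entered the estimate of spread that all groups share, and so the standard errors and adjusted p. None of the 44 genes was called by edgeR, where 2.6% of all genes were called, and 0 were called by DESeq2 or limma-voom. At an unadjusted p below 0.05 there was 1 gene, UTP15, with 29.03 and 31.2 CPM after IKZF1 knockout against 36.8 and 34.5 CPM after IKZF3 knockout (-0.24 ± 0.11, adjusted p = 0.371). The log2 fold changes of the 44 genes ran from -0.36 to 0.26 with a median of -0.00024. The count of 0 does not show that the knockouts act alike, since a single gene's standard error was 0.11 to 0.25.

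Between lines, the effects of IKZF1 knockout differed in a few genes. The MM1S effect minus the H929 effect was called for 2 of the 44 genes (15.9% of all genes), NOP56 (-0.84 ± 0.25, adjusted p = 0.0308) and TCOF1 (-0.70 ± 0.19, adjusted p = 0.023). TCOF1 had 184 and 172 CPM in knockout H929 cells, against 151 and 159 CPM with empty vector, so its H929 fold change was positive (0.20 ± 0.14). The MM1S effect minus the OPM2 effect was called for 4 genes (20.8% of all genes), and the H929 effect minus the OPM2 effect for 7 (12.7% of all genes), and both of these rest on the OPM2 empty vector libraries. Lower calls were shared by MM1S and OPM2 after IKZF1 knockout in 10 genes, 76.9% of the 13 called lower in MM1S and 33.3% of the 30 in OPM2. Over all genes tested these shares were 30.1% and 19%. The first share stands beside 30 of all 44 genes called lower in OPM2, against 20.1% of all genes. The second stands beside 13 of all 44 called lower in MM1S, against 12.7% of all genes. A high overlap therefore largely restates these counts, and the OPM2 count rests on the empty vector libraries. None of the 44 genes fell in all 3 lines, against 0.337% of all genes. Over the 5 main comparisons 10 of the 44 genes (22.7%) were called in none, against 33.8% of all genes, and WDR12 and NPM1 fell in 4 of the 5.

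MYC mRNA and most of these genes fell together in the OPM2 knockouts relative to empty vector. In MM1S, with lenalidomide and in contrasts with untreated OPM2 cells, the calls for MYC and for these genes differed. The set is called here by its function. With lenalidomide MYC fell to 219.7 and 218 CPM, against 533 and 539 CPM in untreated cells (-1.29 ± 0.15, adjusted p = 5.42e-05). Of the 44 genes 2 were called lower there, and 32 and 29 lay below the untreated mean in the 2 treated libraries. In MM1S, where 13 fell, MYC was at 314 and 318 CPM in knockout libraries, against 284 and 302 CPM with empty vector (0.11 ± 0.15, adjusted p = 0.645). In OPM2 MYC fell to 359.6 and 310.1 CPM after IKZF1 knockout and 211 and 239 CPM after IKZF3 knockout, against 522 and 603 CPM with empty vector (-0.75 ± 0.15, adjusted p = 0.00221 and -1.32 ± 0.15, adjusted p = 6.69e-05). It was also lower than in untreated cells (-0.68 ± 0.15, adjusted p = 0.01 and -1.25 ± 0.15, adjusted p = 0.000123), while 0 of the 44 genes fell in either of these contrasts. Empty vector and untreated OPM2 cells did not pass the threshold for a difference in MYC (0.069 ± 0.15, adjusted p = 0.76), while 36 of the 44 genes were higher in empty vector cells. In H929 MYC was at 493 and 350.4 CPM in knockout libraries, against 513 and 449 CPM (-0.19 ± 0.15, adjusted p = 0.502), and library b, the one with the lower members, was also the lower in MYC. MYC protein was not measured, and its part in these results was not tested.

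The partners and antagonists of MYC that changed differed between comparisons. Of 11 genes of the MYC and MAX network, 0 were called in H929. In MM1S 1 rose, MXD4, a repressor that competes for MAX, with 159 and 170.1 CPM in IKZF1 knockout MM1S cells, against 67.3 and 64.02 CPM with empty vector (1.32 ± 0.20, adjusted p = 0.000197). After IKZF1 knockout in OPM2, MYC, MAX (-0.38 ± 0.11), MLX (-0.41 ± 0.12) and MXD3 (-0.82 ± 0.30) fell relative to empty vector, and the antagonist MXD1 (1.01 ± 0.23) and MGA (0.66 ± 0.22) rose. After IKZF3 knockout MYC, MAX, MLX and MYCL fell and MXD1 and MGA rose. MYCL was near the detection limit there, at 0.189 and 0.693 CPM against 1.76 and 1.597 CPM. MXD1 was at 8.85 and 9.001 CPM after IKZF1 knockout and 9.63 and 7.46 CPM after IKZF3 knockout, against 3.16 and 5.47 CPM with empty vector and 9.19 and 7.37 CPM in untreated cells, and it was not called between knockout and untreated cells. With lenalidomide MYC, MXI1 (-0.83 ± 0.22, adjusted p = 0.0229) and MNT (-0.43 ± 0.13, adjusted p = 0.0419) fell. In empty vector over untreated cells MAX (0.49 ± 0.11) and MLX (0.34 ± 0.12) rose and MXD1, MYCN, MGA and MXI1 fell. IKZF3 knockout cells were lower than untreated cells in MXI1 (-1.20 ± 0.22, adjusted p = 0.00298) and MYCN (-0.80 ± 0.20, adjusted p = 0.0257) besides MYC, and IKZF1 knockout cells in MYC alone among the 11.

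Other genes of the pathway, 125 in lists of small-subunit (44), large-subunit (49), polymerase I (18) and RNA exosome (14) factors, were counted in the same way. After IKZF1 knockout 27 fell and 1 rose in MM1S, where 12.7% of all genes were called lower and 15.6% higher. In OPM2 67 fell and 0 rose relative to empty vector (20.1% of all genes lower, 16.2% higher). In H929 3 fell and 1 rose (4.61% of all genes lower, 5.94% higher). After IKZF3 knockout 75 fell and 1 rose relative to empty vector (20.7% of all genes lower, 16.2% higher). With lenalidomide 4 fell and 1 rose (4.59% of all genes lower, 5.78% higher). In empty vector over untreated cells 88 rose and 0 fell (19.5% of all genes higher, 15.9% lower). RSL24D1, a large-subunit factor, fell with lenalidomide to 113 and 112 CPM, against 232 and 242 CPM in untreated cells (-1.07 ± 0.10, adjusted p = 8.38e-06). It also fell in both OPM2 knockouts relative to untreated cells (-0.75 ± 0.10, adjusted p = 0.000366 and -0.81 ± 0.10, adjusted p = 0.000167). These contrasts hold no empty vector library, although those libraries entered the shared estimate of spread. In MM1S the exosome subunit EXOSC8 had 14.1 and 13.3 CPM in IKZF1 knockout MM1S cells, against 28.9 and 29.01 CPM with empty vector (-1.08 ± 0.14, adjusted p = 5.28e-05), TAF1D, a polymerase I cofactor, had 34.8 and 34.6 CPM in IKZF1 knockout MM1S cells, against 59.7 and 60.1 CPM with empty vector (-0.79 ± 0.11, adjusted p = 9.4e-05), and the kinase RIOK1 of small-subunit maturation had 20.5 and 19.4 CPM in IKZF1 knockout MM1S cells, against 36.6 and 35.1 CPM with empty vector (-0.84 ± 0.13, adjusted p = 0.00027). UTP3 rose in MM1S (0.60 ± 0.11, adjusted p = 0.00102) and with lenalidomide (0.36 ± 0.11, adjusted p = 0.0464). In H929 the exosome subunit EXOSC9 rose, with 120.2 and 92.4 CPM in IKZF1 knockout H929 cells, against 41.2 and 45.9 CPM with empty vector (1.29 ± 0.17, adjusted p = 0.000115), while POLR1E, a polymerase I subunit, fell (-0.49 ± 0.12, adjusted p = 0.0159). Of the 44 genes, 12 overlap another gene of the count table, for example BYSL with MED20, GNL3 with GLT8D1 and PPAN with P2RY11, and the sources used here do not state whether strand was used in counting, so reads of such pairs could not be told apart.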

How the data were processed

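RNA was sequenced from 18 libraries of the H929, MM1S and OPM2 myeloma lines, purified with RNeasy Plus and prepared with TruSeq RNA, per the labels' protocols. The authors deposited raw counts per Entrez gene, and Subread, featureCounts, limma and build GRCh38 are named, per the submitters' processing notes, with no versions or settings. The authors also deposited log2 FPKM values (16352 genes, 14 columns, controls merged), used only as levels per length. Rows with no symbol (385 of 28395, at most 0.0276% of a library's counts) were left out. Knockout columns carry other numbers than the titles, so they were assigned to groups only and are called libraries a and b.

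Counts were filtered with filterByExpr by group, scaled by TMM and tested in 1 robust quasi-likelihood model of all libraries with 9 residual degrees of freedom (edgeR 4.0.16, limma 3.58.1, R 4.3.3), and the pipeline was tested on simulated data. With 2 libraries against 2 an exact permutation test cannot go below p = 0.333. The alternatives were RLE scaling, other filters (none, or a CPM of 5 in 2 libraries), DESeq2 1.42.0, limma-voom, the compared libraries alone, a replicate block, untreated cells as control, each library left out, and, added later, a length and GC correction from GENCODE transcripts. Depth of 11.8 to 24.18 M counts limits low genes most.

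The members and lists were chosen with earlier results of these data known. Named genes were up to 12 called members with the smallest adjusted p in each of the 5 main comparisons, the member with the smallest p in each role, the 11 MYC network genes, and up to 3 genes for each other pathway list. Promoter stretches printed were those of NOP10, NAT10 and UTP4, called members with an E-box before the start, and of NOP56, a called member without one. The 30-base sites of RRP9, FBL, MRTO4 and UTP20 were picked after their values were seen.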

Additional observations from a re-analysis of the deposited data

Results flagged for a closer look

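The flagged results are differences between cell lines in the effect of IKZF1 knockout, each given as a log2 difference of 2 within-line fold changes with its standard error and adjusted p from edgeR's test of the difference. Between MM1S and H929, NOP56 differed by -0.84 ± 0.25, adjusted p = 0.0308 and TCOF1 by -0.70 ± 0.19, adjusted p = 0.023, with the more negative effect in MM1S in both. Between MM1S and OPM2, NCL differed by 0.89 ± 0.19, adjusted p = 0.00597, NOP10 by 1.01 ± 0.23, adjusted p = 0.00818, BOP1 by 1.02 ± 0.30, adjusted p = 0.0262 and RRP9 by 1.12 ± 0.33, adjusted p = 0.0292. NCL rose in MM1S and fell in OPM2 relative to empty vector, and BOP1 had 142 and 137 CPM in IKZF1 knockout MM1S cells, against 145 and 141 CPM with empty vector. Between H929 and OPM2, NOP16 differed by 1.02 ± 0.29, adjusted p = 0.0338, FBL by 1.03 ± 0.29, adjusted p = 0.0347, NPM1 by 0.70 ± 0.17, adjusted p = 0.0199 and NHP2 by 1.07 ± 0.28, adjusted p = 0.0256. BOP1 differed there by 1.3 ± 0.30 (adjusted p = 0.0145), RRP9 by 1.38 ± 0.33, adjusted p = 0.0174 and WDR43, lower in H929, by -0.83 ± 0.25, adjusted p = 0.0442. The 4 and 7 differences that involve OPM2 use its empty vector libraries, where replicate 1 stands apart, and 0 of the 44 genes were called in either when the compared libraries were fitted alone.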

How the results depend on the processing

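The counts of called genes among the 44 kept within 1.5 times of the main value under DESeq2 size factors (RLE), a stricter low-count filter and limma-voom in every comparison, except that limma-voom and the DESeq2 Wald test called 2 genes in H929. The low-count filter's removal gave 12 for the MM1S minus OPM2 and 15 for the H929 minus OPM2 difference, and the DESeq2 Wald test gave 10 and 15. All counts in this paragraph stand without the share of all genes called in the same fit. They do not show whether a shift is particular to the 44 genes. Fitting the compared libraries alone gave 36 genes in MM1S and 17 with lenalidomide, and 0 in both OPM2 knockout comparisons, in empty vector over untreated cells and in both differences with OPM2. That fit has 2 or 4 residual degrees of freedom. The length and GC correction, chosen after seeing the data, gave 3 in H929, 33 in MM1S, 4 with lenalidomide, 7 for MM1S minus H929 and 12 for H929 minus OPM2, and turned UTP15 after IKZF3 knockout to -0.35. Leaving out 1 library at a time, any of the 18, gave 0 to 9 genes in H929, 4 to 32 in MM1S, 24 to 37 after IKZF1 and 18 to 38 after IKZF3 knockout in OPM2, 1 to 6 with lenalidomide, 31 to 40 for empty vector over untreated cells, 0 for IKZF1 against IKZF3 knockout, and 0 to 10, 2 to 30 and 0 to 33 for the differences MM1S minus H929, MM1S minus OPM2 and H929 minus OPM2. In H929, MM1S, lenalidomide and the 3 differences the highest counts came without an OPM2 empty vector library. That library enters the estimate of spread shared by all groups, and whether these shifts are particular to the 44 genes was not tested. Over these fits RRP1B ran from -0.24 to 0.31 after IKZF1 and from -0.28 to 0.27 after IKZF3 knockout, and NOC3L from -0.33 to 0.45 after IKZF3 knockout, with the positive ends without OPM2 empty vector replicate 2. With a replicate block, 36 genes were called for empty vector over untreated cells, as without it. No paired analysis was possible for the other comparisons because their columns do not carry the same replicate numbers. The same-numbered empty vector and untreated OPM2 libraries had deviations correlated at 0.125 over 2 pairs. With 2 libraries per group this value cannot show whether the pairs share more than a number. Called genes that were still called without any 1 of the 4 libraries compared were 0 of 1 in H929, 3 of 14 in MM1S, 21 of 30 after IKZF1 and 18 of 29 after IKZF3 knockout in OPM2, and 1 of 2 with lenalidomide.

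With untreated OPM2 cells in place of empty vector, 0 genes were called after IKZF1 and 2 after IKZF3 knockout, and the sign turned in 25 of the 30 and 25 of the 29 genes called lower, and in GNL3, which was not called after IKZF3 knockout relative to empty vector. The log2 fold changes then were, after IKZF1 knockout, NOP56 0.29, NOP58 0.029, NOP2 0.28, NOP14 0.23, NOP16 0.45, NCL 0.22, DKC1 0.10, NHP2 0.089, GAR1 0.25, NOP10 0.066, BOP1 0.16, PES1 0.26, RRP9 0.41, RRP12 0.29, UTP4 0.35, BYSL 0.26, GNL3 0.39, NOB1 0.072, MRTO4 0.39, RRS1 0.36, NOC2L 0.35, NOC4L 0.30, POLR1C 0.30, TCOF1 0.30 and LYAR 0.12. After IKZF3 knockout they were NOP56 0.28, NOP2 0.30, NOP14 0.22, NOP16 0.50, NCL 0.24, DKC1 0.28, NHP2 0.11, GAR1 0.43, NOP10 0.20, BOP1 0.10, PES1 0.26, WDR12 0.16, RRP9 0.58, RRP12 0.22, UTP4 0.34, NAT10 0.0052, BYSL 0.28, GNL3 0.46, MRTO4 0.39, PPAN 0.31, RRS1 0.33, NOC2L 0.31, NOC4L 0.36, POLR1C 0.61, TCOF1 0.086 and LYAR 0.16. The cause was not tested.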
